A study of Mus musculus with 10 samples.

Results

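Of the 39657 sites in the deposited table, 83 lay nearest to a proteasome gene. They were chosen by name and position: the protein-coding gene body nearest to the site, within 50 kb and counted as 0 where they overlap, had a symbol of the form Psma, Psmb, Psmc, Psmd, Psme, Psmf or Psmg followed by a number. No measured value entered that choice. The 83 sites belonged to 42 of the 51 genes with such a symbol. The other 9 genes, Psma2, Psma4, Psma7, Psmb3, Psmb11, Psmc5, Psme2, Psme2b and Psmg2, had no site assigned to them. Psmc3ip (2 sites) and Psme3ip1 (1 site) carry a symbol of this form as interaction partners and are not proteasome subunits. Without them 80 sites at 40 genes remained.

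Chromatin openness was measured by ATAC-seq, in which a transposase cuts accessible DNA, in mouse Th17 cells grown for 3 days from naive CD4+ T cells of spleen and lymph nodes. The cultures came from PDHfl/fl CD4 Cre+ mice (KO) or from PDHfl/fl mice without the Cre (WT), spelled PHD-fl/fl in the sample titles, so both genotypes carried floxed alleles of pyruvate dehydrogenase, the enzyme complex that turns pyruvate into acetyl-CoA in mitochondria. Of KO cells there were 2 libraries made after culture with 10 mM sodium acetate, a second source of acetyl-CoA, and 3 from untreated cells. Of WT cells there were likewise 2 with acetate and 3 untreated. The Cd4 promoter used for this Cre is active in the T cell lineage. The labels do not name the floxed subunit gene, so its deletion was not checked here. Nothing in the labels says that libraries of 1 group came from separate animals, and all p-values therefore measure the spread between these libraries, which may be technical.

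The proteasome degrades proteins that carry ubiquitin chains. Its 20S core is a barrel of alpha subunits (Psma genes), which form the gated outer rings, and beta subunits (Psmb genes), which form the inner rings and hold the proteolytic sites. Psmb6, Psmb7 and Psmb5 encode the caspase-like, trypsin-like and chymotrypsin-like subunits, and after interferon signalling, and constitutively in many immune cells, they are replaced by Psmb9, Psmb10 and Psmb8 to give the immunoproteasome, which favours peptides for MHC class I. The 19S cap recognises and unfolds substrates with a ring of ATPases (Psmc genes) and a lid and base of other subunits (most Psmd genes). Psme genes encode other activators, Psmf1 an inhibitor, and Psmg1 to Psmg4, Psmd5, Psmd9 and Psmd10 encode chaperones that help to assemble the particle. When proteasome activity is low, the transcription factor NRF1 (Nfe2l1) raises subunit genes through antioxidant response elements.

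Promoter sequences are shown for 5 genes whose start sites carry results described further on. Psmb5, Psmb6 and Psmb9 are catalytic subunits whose windows hold a motif, and Psmb8 and Psma5, the alpha gene with the strongest start site, show windows without one. They come from RefSeq on GRCm38.p6, 250 bases before to 50 bases after the annotated start, and are written 5′ to 3′ on the strand of the gene. Capitals mark TGACNNNGC, the core antioxidant response element, or CCAAT, the NF-Y motif, found on either strand. The windows are chr3:108256676-108256975 (plus strand), chr14:54617946-54618245 (minus strand), chr11:70525107-70525406 (plus strand), chr17:34197945-34198244 (plus strand) and chr17:34187281-34187580 (minus strand).
Psma5: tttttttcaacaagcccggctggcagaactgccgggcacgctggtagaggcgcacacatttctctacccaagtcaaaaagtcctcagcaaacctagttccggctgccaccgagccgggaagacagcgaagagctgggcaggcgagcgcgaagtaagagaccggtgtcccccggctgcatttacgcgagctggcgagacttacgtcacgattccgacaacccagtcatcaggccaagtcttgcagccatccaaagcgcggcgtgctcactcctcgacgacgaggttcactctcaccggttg
Psmb5: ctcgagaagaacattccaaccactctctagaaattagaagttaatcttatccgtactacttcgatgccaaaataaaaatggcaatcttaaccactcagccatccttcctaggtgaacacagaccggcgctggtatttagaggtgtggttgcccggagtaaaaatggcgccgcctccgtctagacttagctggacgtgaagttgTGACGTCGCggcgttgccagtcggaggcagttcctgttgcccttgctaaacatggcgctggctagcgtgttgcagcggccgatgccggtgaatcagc
Psmb6: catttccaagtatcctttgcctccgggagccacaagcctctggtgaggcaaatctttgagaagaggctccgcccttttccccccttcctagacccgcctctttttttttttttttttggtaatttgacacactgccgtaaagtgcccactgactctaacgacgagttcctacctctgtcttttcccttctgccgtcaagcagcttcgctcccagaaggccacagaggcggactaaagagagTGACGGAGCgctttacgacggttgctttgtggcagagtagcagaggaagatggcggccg
Psmb8: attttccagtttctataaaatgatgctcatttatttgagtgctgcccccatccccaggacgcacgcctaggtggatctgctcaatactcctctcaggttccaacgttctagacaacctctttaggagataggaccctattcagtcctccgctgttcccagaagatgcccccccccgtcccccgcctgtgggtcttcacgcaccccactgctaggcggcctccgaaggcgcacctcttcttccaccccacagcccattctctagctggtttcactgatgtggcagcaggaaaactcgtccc
Psmb9: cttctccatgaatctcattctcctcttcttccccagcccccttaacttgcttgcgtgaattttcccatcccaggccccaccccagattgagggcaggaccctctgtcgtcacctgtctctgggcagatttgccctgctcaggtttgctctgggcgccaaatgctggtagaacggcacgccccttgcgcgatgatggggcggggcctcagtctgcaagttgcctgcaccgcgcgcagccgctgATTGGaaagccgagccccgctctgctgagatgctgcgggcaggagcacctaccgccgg

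Counted from the annotated start as position 0, the first base of TGACNNNGC stood at -47 in Psmb5 and at -9 in Psmb6, and CCAAT began at -8 in Psmb9, on the opposite strand. The windows of Psma5 and Psmb8 held neither. Among 44 promoter windows of 41 proteasome genes, Psmc3ip and Psme3ip1 left out, 6 (13.6%) held TGACNNNGC, at Psmb5, Psmb6, Psmc6, Psmd9, Psmd12 and Psme4, against 12.4% of all 32851 windows. CCAAT was in 14 (31.8%) against 37.4% of all, and the cell cycle homology motif, TTTGAA or TTCGAA on either strand, in 3 (6.82%) against 19.2% of all. Overlaps between motifs were not looked for, and a match describes these letters only. With Psmc3ip and Psme3ip1 included, 43 genes had 47 windows, and 30 windows of 29 genes overlapped a site assigned to their gene. Psma8, Psmb1, Psmb2, Psmb7, Psmc3, Psmd3, Psmd7 and Psmg2 had no entry.

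The deposited values are signal, that is, the reads of a site after division by a factor of its library. Libraries had between 3500172 and 13356560 reads over all sites. The median over the 83 proteasome sites was 81 to 310 reads in a library, and the lowest proteasome value was 11 reads. Since the table numbers its sites as differential, it was treated as a selection made on these same libraries, and other open chromatin was not analysed here. All calls and p-values below come from these libraries too and are not independent of that selection. Column names place all untreated KO libraries and 2 of the untreated WT libraries in ATAC1, and all acetate libraries and the third untreated WT library in ATAC2. Loci of 5 of 5 Th17 marker genes and 3 of 3 T cell marker genes had sites, the CD8 genes Cd8a and Cd8b1 had none, and nor did Cd79a, Ms4a1, Csf1r, Lyz2 or Ncr1. Signal summed over the 25 Th17 marker sites was 3584 to 4417 in untreated KO and 5736 to 7684 in untreated WT, whereas over the 20 sites near Cd3e, Cd3d and Cd4 it was 5299 to 7290.2 in untreated KO and 4081 to 5316 in untreated WT. Sums over the 15 B cell, 6 myeloid and 11 NK marker sites were 964 to 1370.3, 927 to 1229.6 and 1349 to 1607 in untreated KO, against 1478 to 1821, 1639 to 1937 and 2089.7 to 3024 in untreated WT. In acetate cultures the Th17 sum was 4943 to 6380.5 in KO and 6704 to 7015 in WT, and the sum near Cd3e, Cd3d and Cd4 was 8273 to 10424 in KO and 4212 to 4348 in WT. Beside these sums, 89.6% of all sites were called lower in untreated KO and 9.07% higher (limma, adjusted p under 0.05). The sum near Cd3e, Cd3d and Cd4 was not split by gene. KO mice carry a Cre under a Cd4 promoter, and whether reads of that transgene enter the sum was not tested. The sums therefore do not measure the share of any cell type. The part of these marker loci in the results was not tested.

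Proteasome sites were mostly at the ends of their genes. Of the 83, 47 (56.6%) overlapped or lay within 1 kb of a gene end, against 24.4% of all sites. A further 11 lay within the gene body and 25 outside it, and 36 sites at 31 genes were within 500 bp of an annotated start of their own gene. Median signal over the 10 libraries was 195 at proteasome sites and 146 at all sites. At gene ends it was 292 at proteasome sites against 311 at all such sites. The most sites belonged to Psma1 (6) and Psma6 (5), and 82 of the 83 were 201 bp wide, the exception being the Psmb1 site. Nearness does not show that a site acts on the gene, and 7 of the gene-end sites were also within 1 kb of the end of another gene: the Psmb9 and Psmb8 sites that flank Tap1, the Psmc2 site at Dnajc2, the Psmd13 site at Sirt3, and 1 site each of Psmd8, Psmc3ip and Psmg4. The Psmc2 and Psmd13 sites, and the Psmd10 site at Atg4a, overlapped both genes and could equally be counted to the other.

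In untreated cells, the genotype comparison asks what loss of pyruvate dehydrogenase does to openness near these genes. As deposited, signal fell in KO at 78 of the 83 proteasome sites, rose at 3 and was not called at 2 (limma, adjusted p under 0.05 over all 39657 sites). Across all sites 89.6% were called lower and 9.07% higher. The median log2 difference was -0.80 at proteasome sites and -0.84 over all sites, which puts the proteasome sites near the whole table in share and in size. Every untreated KO library was below every untreated WT library at 70 proteasome sites (84.3%), against 80.9% of all sites. Of the 42 genes, 38 had all their sites lower, and the same count was not made for other genes. Within ATAC1, which holds the 3 untreated KO libraries and 2 of the untreated WT libraries, 77 sites were lower and 3 higher, with a median of -0.70 against -0.83 over all sites. The size of this fall rests on the deposited scaling. Cyclic loess, which centres the libraries on each other, left 3 proteasome sites higher and 1 lower (median 0.01), with 9.35% of all sites called higher and 2.41% lower. Median-of-ratios factors left 3 higher and 6 lower, and total signal 3 higher and 7 lower, while the median of all sites was -0.04 and -0.13. For the ATAC1 fit and these 2 scalings the shares of all sites called are not given, so those counts are not compared with the whole table. Because ATAC-seq was done on bulk cultures, fewer cells with an open site and less opening per cell cannot be told apart.

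**Figure D1:**
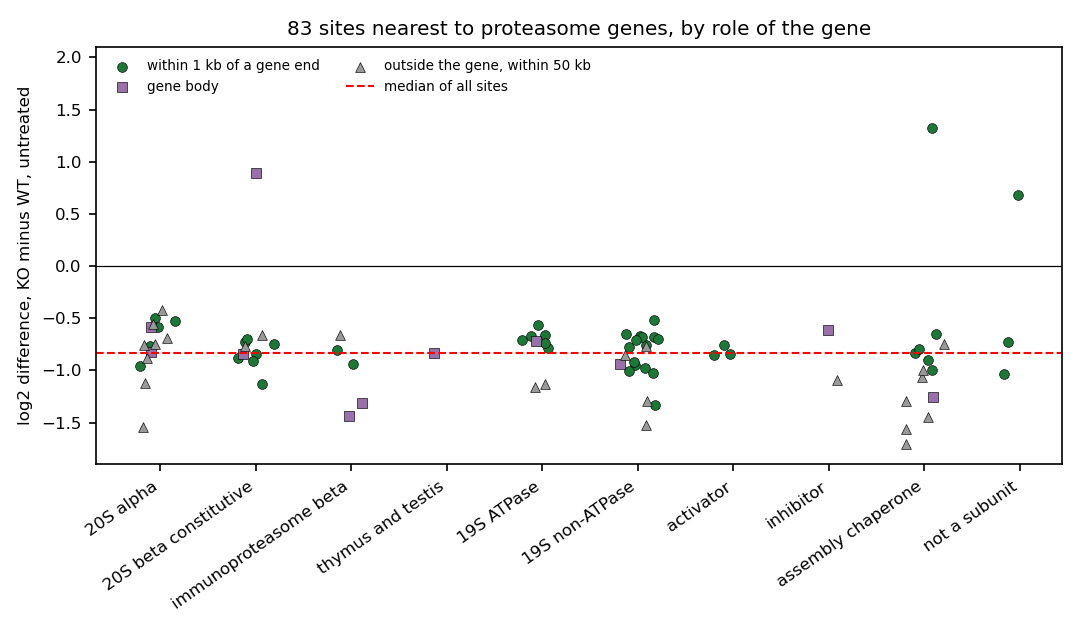
Each point is 1 of the 83 sites, placed by the role of its nearest gene, with its log2 difference in deposited signal between untreated KO and untreated WT on the vertical axis; colour and shape give its place in the gene, the horizontal scatter is arbitrary, and the dashed line is the median of all 39657 sites at -0.84. Most sites of every role lie around the dashed line, and 3 sites, of a 20S beta gene, an assembly chaperone gene and a gene that is not a subunit, lie above 0.

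The catalytic subunits of the core are described by the strongest site of each gene. Psmb6 had 1 site, at its start (chr11:70525153-70525353), with a signal of 174, 147 and 193 in untreated KO libraries, against 295, 222 and 437 in untreated WT libraries. All KO values were under all WT values, with a log2 difference of -0.84 ± 0.21 (SE; adjusted p = 0.0003). Psmb5 at its start (chr14:54617909-54618109) had 193, 151 and 203 in untreated KO libraries, against 336, 213 and 377 in untreated WT libraries. Its groups did not overlap either, and its signal fell by 0.72 ± 0.21 on the log2 scale (adjusted p = 0.00137). For Psmb7 the strongest site lay inside the gene (chr2:38619355-38619555) and had 111, 128 and 156 in untreated KO libraries, against 329.6, 386 and 102 in untreated WT libraries. The ATAC2 library of untreated WT was lowest of all 6 there, and the difference of -0.84 ± 0.42 was not called (adjusted p = 0.0725), whereas without that library it was -1.44 (adjusted p = 2.88e-09).

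The immunoproteasome genes had 5 sites, all 5 lower in untreated KO, as were 89.6% of all sites, with a median log2 difference of -0.94 against -0.84. The strongest of all catalytic subunit sites was that of Psmb9 (chr17:34187331-34187531), 1 bp outside the gene and on the side of Tap1, the peptide transporter gene that Psmb9 neighbours head to head. It had 479, 459 and 636 in untreated KO libraries, against 929, 669 and 1204 in untreated WT libraries. No KO library reached a WT library, and signal fell by 0.81 ± 0.19 log2 units (adjusted p = 9.97e-05). Upstream of the Psmb8 start (chr17:34197753-34197953) the values were 152, 159.7 and 161 in untreated KO libraries, against 351, 233 and 341 in untreated WT libraries. The groups were apart and the log2 difference was -0.94 ± 0.21 (adjusted p = 6.78e-05). Psmb10, the trypsin-like immunoproteasome subunit, had 1 site, inside the gene and 1139 bp beyond its start (chr8:105937153-105937353), with 93.8, 67.3 and 104 in untreated KO libraries, against 237, 174 and 249 in untreated WT libraries. The KO libraries were lower without overlap, at 88.4 ± 19 against 219.9 ± 40.4 in WT (SD, n = 3 each), which gave -1.31 ± 0.22 (adjusted p = 3.18e-07). A second Psmb8 site, inside the gene (chr17:34199285-34199485), had a difference of -1.43 ± 0.29. With cyclic loess the Psmb10 difference was -0.46 (adjusted p = 0.0938) and those at the starts of Psmb5, Psmb6, Psmb8 and Psmb9 were 0.11, -0.02, -0.11 and -0.13, none of them called.

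**Figure D2:**
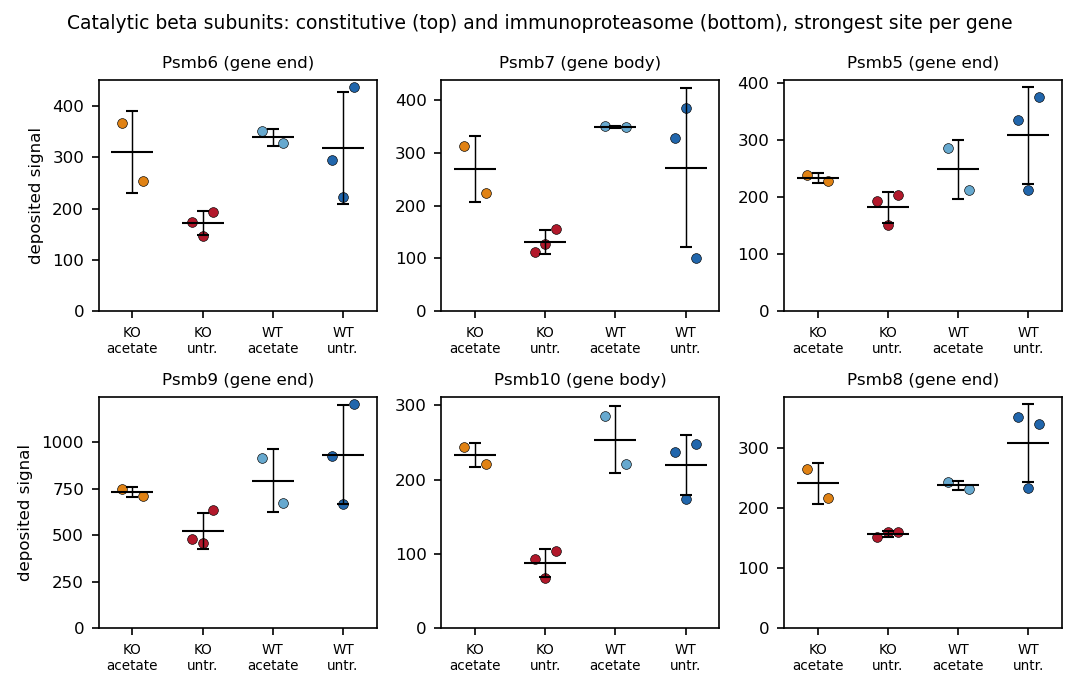
Deposited signal (vertical axis) in each of the 10 libraries at the strongest site of the 3 catalytic subunit genes of the core (top) and the 3 of the immunoproteasome (bottom); bars are the group mean and SD, with n = 2 for acetate groups and n = 3 for untreated groups. Untreated KO values lie under untreated WT values in every panel but Psmb7, where 1 untreated WT library is at 102.

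Of 15 sites at alpha genes, 14 were called lower and none higher as deposited, against 89.6% and 9.07% of all sites, with a median log2 difference of -0.74 against -0.84. The strongest gene-end site was that of Psma5 (chr3:108256949-108257149), which had 630.1, 737 and 747 in untreated KO libraries, against 1134, 876 and 992 in untreated WT libraries. KO libraries were below WT libraries without overlap, but by the least of all called gene-end sites, -0.50 ± 0.18 (adjusted p = 0.0062). The smallest fall of any called site was also at an alpha gene, 40464 bp upstream of Psma1 (chr7:114316480-114316680), with -0.42 ± 0.18 (adjusted p = 0.0218). Neither call held in every fit that left out 1 library: without untreated WT 1 the adjusted p was 0.0571 at Psma5 and 0.108 at Psma1, and without untreated KO 1 it was 0.113 at Psma1. Another upstream Psma1 site (chr7:114292683-114292883) had one of the largest falls, with 29.6, 22.4 and 36.7 in untreated KO libraries, against 109, 88.4 and 66.3 in untreated WT libraries and a difference of -1.54 ± 0.27. Psma1 thus carried both ends of the range among its 6 sites, while its start site had -0.77 ± 0.21. Among 11 sites of constitutive beta genes, 9 fell and 1 rose (median -0.76), beside the same shares of all sites. The strongest at a gene end was that of Psmb1 (chr17:15498240-15498626), a structural beta subunit, with 289.6, 332 and 402 in untreated KO libraries, against 714, 456 and 789 in untreated WT libraries and a log2 difference of -0.91 ± 0.20 (adjusted p = 4.24e-05). Psma8, a testis-specific alpha subunit, had 1 site with -0.83 ± 0.30.

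In the 19S cap, all 9 sites of ATPase genes and all 20 sites of non-ATPase genes were called lower, with medians of -0.72 and -0.81, in a table where 89.6% of all sites were lower with a median of -0.84. Most were gene-end sites, 6 of ATPase and 15 of non-ATPase genes, with medians of -0.69 and -0.75. Of all gene-end sites 98.0% were called lower, with a median of -0.80, so these counts do not set the cap apart. Psmc6, an ATPase of the base, had the strongest ATPase gene-end site (chr14:45329611-45329811), with 389.9, 449 and 462 in untreated KO libraries, against 703, 547 and 831 in untreated WT libraries, and Psmd11, a lid subunit, the strongest of the others (chr11:80428445-80428645), with 455, 490.4 and 534 in untreated KO libraries, against 855, 624 and 922 in untreated WT libraries. The differences were -0.66 ± 0.19 (adjusted p = 0.00113) and -0.68 ± 0.19 (adjusted p = 0.000642), and groups did not overlap at either. A site beyond the far end of Psmd1, the largest subunit of the base (chr1:86143308-86143508), had 42.8, 37.4 and 30.7 in untreated KO libraries, against 126, 102 and 95.1 in untreated WT libraries. The groups were far apart, and the log2 difference was -1.52 ± 0.26 (adjusted p = 5.63e-07), against -0.75 ± 0.23 at the Psmd1 start.

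The activators had 3 sites, all at gene ends and all 3 lower (median -0.85), as were 98.0% of all gene-end sites. Psme1, a subunit of an interferon-induced activator, had the strongest of these (chr14:55578336-55578536), with 308, 299.8 and 403 in untreated KO libraries, against 639, 446 and 761 in untreated WT libraries, without overlap, and a log2 difference of -0.85 ± 0.20 (adjusted p = 0.000113). Both sites of the inhibitor gene Psmf1 fell, by 0.61 ± 0.21 at its start and by 1.09 ± 0.30 on the log2 scale 8317 bp upstream. Assembly chaperone genes had 14 sites, of which 13 fell and 1 rose, against 89.6% and 9.07% of all sites, with the lowest median of any role group, -0.996, and Psmg3 and Psmg4 held 3 of the 5 largest falls. Only 6 of the 14 were gene-end sites. Those 6 had a median of -0.82, against -0.80 at all gene-end sites and -0.84 at gene-end sites of constitutive beta genes.

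Psmg4, a chaperone of alpha ring assembly, had a site 6599 bp upstream of its start (chr13:34156265-34156465) with 46.1, 27.1 and 39.0 in untreated KO libraries, against 125, 113 and 127 in untreated WT libraries. This was the largest fall of the 83, -1.70 ± 0.25 (adjusted p = 1.64e-08), and the 1 proteasome site still called lower with cyclic loess, at -0.78 (adjusted p = 0.0159). Psmg3, its partner in the same chaperone pair, had 4 sites, all upstream of the gene, with differences of -0.99 ± 0.22, -1.45 ± 0.24, -1.56 ± 0.29 and -1.29 ± 0.28 in order of position. The site of the largest of these (chr5:139833956-139834156) had 22.5, 25.2 and 18.9 in untreated KO libraries, against 63.7, 66.3 and 71.9 in untreated WT libraries. Of all gene-end sites of chaperone genes that of Psmd5, which acts on the base, was strongest (chr2:34870908-34871108), with 339, 397 and 413 in untreated KO libraries, against 702, 438 and 695 in untreated WT libraries and a log2 difference of -0.65 ± 0.20 (adjusted p = 0.00197).

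Start sites covered a narrower range than sites away from gene ends. The 36 sites within 500 bp of their own gene's start had log2 differences of -1.01 to -0.50, with a median of -0.76 against -0.78 at all 6644 sites that lay as near to the start of their gene; 35 were called lower and none higher, against 99.2% and 0.361% of those sites. The 47 gene-end sites had a median of -0.76 (44 lower, 2 higher), against -0.80 at all gene-end sites, of which 98.0% were called lower and 1.5% higher. Away from gene ends the 36 proteasome sites had a median of -0.87, against -0.86 at all sites so placed, and a range of -1.70 to 0.89. These 2 groups share the gene-body sites within 500 bp of an annotated start of Psma6, Psmc2 and Psmf1. In the whole table the quartiles were -0.91 and -0.66 at start sites. At sites away from gene ends and within 50 kb they were -1.06 and -0.67, so start sites spread less there too. The difference in spread was not tested. Sites away from gene ends were weaker than gene-end sites, with median signals of 114 in gene bodies and 101 outside genes.

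**Figure D3:**
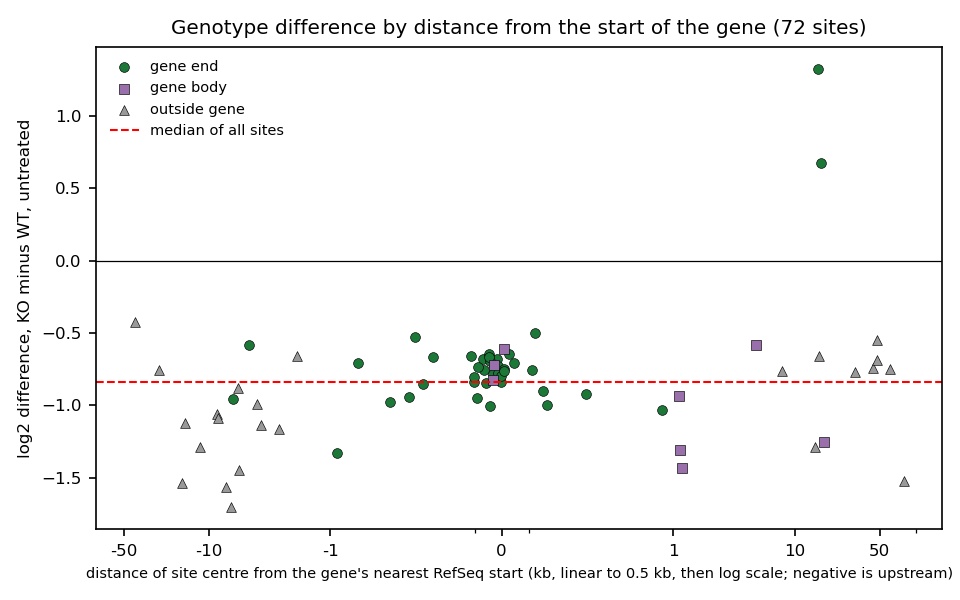
Log2 difference between untreated KO and untreated WT (vertical axis) against the distance from the centre of the site to the nearest RefSeq start of its gene in kb (horizontal axis, linear to 0.5 kb and logarithmic beyond, upstream negative), for the 72 sites whose gene had a start in the table; the other 11 sites are not shown. Sites at the start cluster between -1.01 and -0.50, and distant sites reach from -1.70 to 1.33.

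Only 3 of the 83 sites rose in untreated KO, none of them at a start annotated here, and the same 3 were called higher with each of the 4 scalings. Inside Psmb7 (chr2:38641236-38641436) signal was 139.8, 135 and 186 in untreated KO libraries, against 79.9, 82.4 and 81.8 in untreated WT libraries. All KO values exceeded all WT values, 0.89 ± 0.26 (adjusted p = 0.000952). The site lay 2516 bp from a gene end, and at that end another site (chr2:38643872-38644072) fell, -0.70 ± 0.24. At the far end of Psmg4 (chr13:34178325-34178525), 15461 bp beyond its start and also within 1 kb of an end of Slc22a23, signal was 84.5, 101 and 131 in untreated KO libraries, against 52.4, 64.3 and 19.9 in untreated WT libraries. KO libraries were above WT libraries, 1.33 ± 0.30 (adjusted p = 8.19e-05), and the ATAC2 library of untreated WT was lowest; without it the difference was 0.83. The Psmg4 start site (chr13:34162863-34163063) fell, -0.84 ± 0.20. At the far end of Psme3ip1 (chr8:94574726-94574926), which is not a subunit gene, signal was 208, 171 and 233 in untreated KO libraries, against 125, 149 and 108 in untreated WT libraries, again without overlap, 0.68 ± 0.23 (adjusted p = 0.00401). With cyclic loess the differences were 1.82, 2.24 and 1.55 at Psmb7, Psmg4 and Psme3ip1. With 9.07% of all sites called higher, 3 of 83 is not more than the table as a whole.

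**Figure D4:**
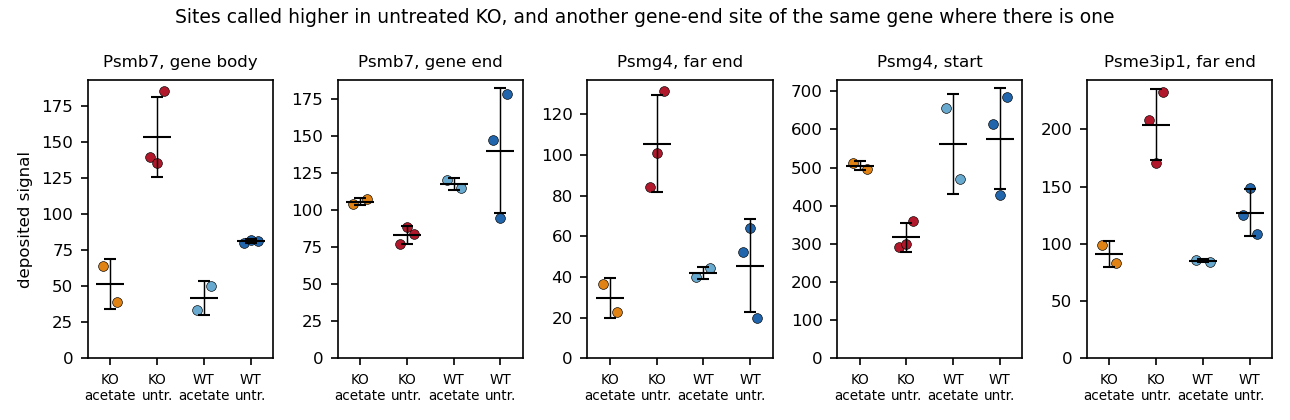
Deposited signal (vertical axes, each from 0) by library at the 3 sites that rose in untreated KO and at another gene-end site of Psmb7 and of Psmg4; bars are group means and SD, with n = 2 for acetate groups and n = 3 for untreated groups. Untreated KO is the highest group at the 3 rising sites and the lowest at the other gene-end sites.

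With acetate, KO and WT were compared in 2 libraries each. No proteasome site was called in either direction (limma, adjusted p under 0.05), with none of the 83 at an unadjusted p under 0.05 either, and 0.0227% of all sites were called higher and 0.0% lower. Log2 differences ran from -0.62 to 0.41, with a median of -0.14 against -0.15 over all sites. At Psmb10 the signal was 245 and 222 in KO acetate libraries, against 286 and 222 in WT acetate libraries, which overlapped, with a difference of -0.11 ± 0.27. The Psmb9 start site had 750.2 and 712 in KO acetate libraries, against 914 and 673 in WT acetate libraries, also overlapping, and -0.10 ± 0.23. The sites that rose in untreated KO had 0.27 ± 0.31 inside Psmb7, -0.53 ± 0.37 at Psmg4 and 0.09 ± 0.28 at Psme3ip1. A difference that misses the threshold with 2 libraries a group does not show that the genotypes are alike, since the SE at these sites was 0.23 to 0.37.

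Acetate against no treatment in KO cells gave calls at most proteasome sites as deposited, 48 higher and 3 lower, with a median log2 difference of 0.56 against 0.61 over all sites. Across all sites 54.6% were called higher and 5.94% lower. Among KO libraries alone acetate and column prefix cannot be told apart, because the KO acetate libraries are all ATAC2 and the untreated KO libraries all ATAC1. With prefix as a covariate, which rests on the single ATAC2 untreated WT library, 13 were higher and 1 lower, against 27.3% and 2.53% of all sites, and the median was 0.26 against 0.56. Leaving out KO acetate 1 left 16 higher, KO acetate 3 left 30, and untreated KO 1 or 2 left 28 or 29. With cyclic loess 6 were higher and 10 lower, against 11.5% and 16.7% of all sites.

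The 6 sites higher in KO with acetate under each of the 4 scalings were at Psmb10, Psmf1, Psmg3 and Psma1 and 2 upstream of Psmc1, a base ATPase. The share of all sites higher under each of the 4 was not computed. With cyclic loess alone 6 of the 83 were higher, against 11.5% of all sites, so the count does not set proteasome sites apart. The Psmb10 site had 245 and 222 in KO acetate libraries, against 93.8, 67.3 and 104 in untreated KO libraries. Both acetate libraries exceeded every untreated KO library, as at 64 of the 83 proteasome sites and 69.8% of all sites. The difference was 1.41 ± 0.25 (adjusted p = 6.3e-07), and 0.74 with cyclic loess. Upstream of Psmc1 (chr12:100106369-100106569) the values were 149 and 125 in KO acetate libraries, against 31.3, 41.1 and 57.9 in untreated KO libraries, and the difference was 1.68 ± 0.28 (adjusted p = 2.64e-07). At the Psmg3 site with the largest fall in untreated KO (chr5:139833956-139834156), they were 88.7 and 69.4 in KO acetate libraries, against 22.5, 25.2 and 18.9 in untreated KO libraries. That was the largest gain of the 83, 1.78 ± 0.32 (adjusted p = 1.24e-06). The 3 sites called lower were the 3 that rose in untreated KO: -1.58 ± 0.29 inside Psmb7 (adjusted p = 1.49e-06), -1.81 ± 0.34 at the far end of Psmg4 and -1.15 ± 0.25 at Psme3ip1. With prefix as a covariate the fall was called only inside Psmb7, at -1.59 (adjusted p = 0.00239), and not at the far end of Psmg4, -0.31 (adjusted p = 0.661), or at Psme3ip1, -0.82 (adjusted p = 0.0999). In the same fit the gains were 1.12 at Psmb10 (adjusted p = 0.0152), 1.64 at the Psmg3 site (adjusted p = 0.00565) and 1.04 at the Psmc1 site, which was not called (adjusted p = 0.0528). The untreated KO against WT comparison and the acetate comparison in KO use the same untreated KO libraries, so these values are not independent of each other.

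**Figure D5:**
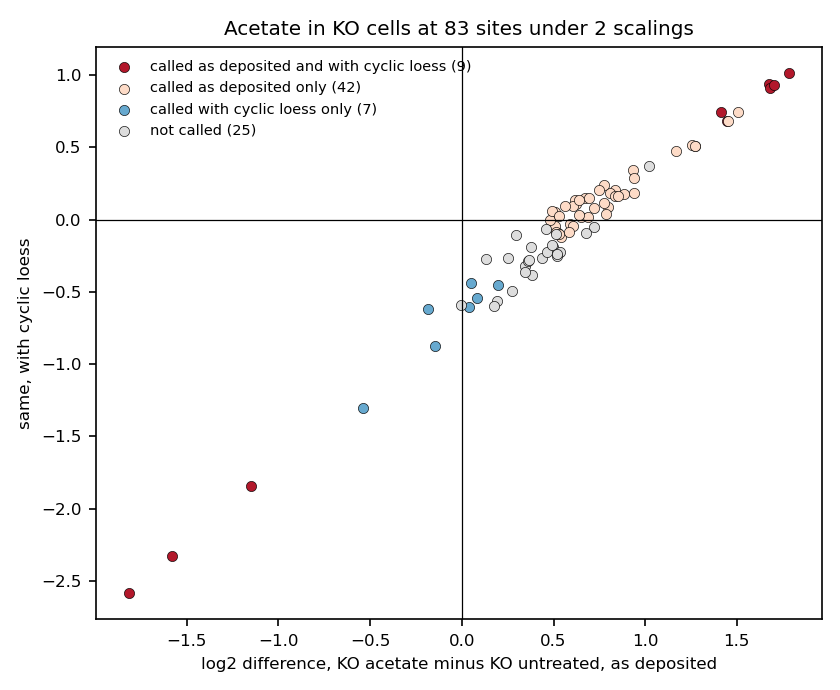
Log2 difference between KO acetate and untreated KO at the 83 sites, as deposited (horizontal axis) and with cyclic loess (vertical axis); colours give the scalings under which a site was called at an adjusted p under 0.05. The points lie along a rising band, lower on the vertical axis than on the horizontal one: 9 sites are called under both, 42 as deposited only, 7 with cyclic loess only, and 25 under neither.

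In WT cells acetate gave few calls, 1 higher and 3 lower among the 83, against 2.91% and 3.02% of all sites, with a median of -0.12 against -0.03. The site 8317 bp upstream of Psmf1 (chr2:151749527-151749727) had 86.2 and 102 in WT acetate libraries, against 43.7, 53.2 and 36.5 in untreated WT libraries. Acetate libraries were higher without overlap, 1.07 ± 0.34 (adjusted p = 0.0337), and in KO the same site differed by 1.70 ± 0.34, with 80.1 and 57.3 in KO acetate libraries, against 17.5, 19.6 and 23.6 in untreated KO libraries. The 3 lower sites were at Psmb2, a structural beta subunit (chr4:126678090-126678290; -1.04 ± 0.33, adjusted p = 0.0352), inside Psmb7 (the site that rose in untreated KO; -0.96 ± 0.29, adjusted p = 0.024) and beyond Psmd4, a ubiquitin receptor of the cap (chr3:95027806-95028006; -0.98 ± 0.27, adjusted p = 0.0146). At the Psmd4 site the values were 73.8 and 96.9 in WT acetate libraries, against 187, 171 and 148 in untreated WT libraries, again without overlap. A fit of the 2 WT groups alone called none of the 83, and neither did one without WT acetate 1 or without untreated WT 1. The Psmf1 and Psmb2 calls were also lost without WT acetate 2, Psmb2 and Psmb7 without untreated KO 1, and Psmb2 without untreated WT 2. With cyclic loess the counts were again 1 and 3, against 4.43% and 4.07% of all sites. Within ATAC2, 1 untreated WT library remains and its spread is assumed to be that of the other groups. Calls from that fit are not counted here.

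The genotype by acetate interaction asks whether acetate moved a site differently in KO and in WT cells. A value above 0 means a more upward, or less downward, change with acetate in KO than in WT, and does not say which genotype changed more. As deposited the interaction was called above 0 at 18 proteasome sites and below 0 at 1, against 19.5% and 3.61% of all sites. The median was 0.67 at proteasome sites and 0.67 over all sites. The largest values above 0 were inside Psmb8 (chr17:34199285-34199485), 1.63 ± 0.46 (adjusted p = 0.016), at the Psmg3 site named above, 1.61 ± 0.45 (adjusted p = 0.0151), and inside Psmd9, a chaperone of the base (chr5:123245605-123245805), 1.47 ± 0.42 (adjusted p = 0.0175). The second Psmb8 site had 68.2 and 66.4 in KO acetate libraries, 25.8, 19.6 and 27.2 in untreated KO libraries, 61.5 and 55.5 in WT acetate libraries and 81.2, 47.2 and 76.3 in untreated WT libraries. Untreated KO was the lowest group there, and untreated WT spanned both acetate groups. The KO acetate libraries lay above the WT acetate libraries, 2 against 2, but the site was not called in that comparison. The value called below 0 was at the far end of Psmg4, -1.86 ± 0.48 (adjusted p = 0.00995), and with cyclic loess it was -2.65 (adjusted p = 0.00225). Mean signal there was 105.5 in untreated KO and 29.6 in KO acetate, against 45.5 in untreated WT and 42.1 in WT acetate. With cyclic loess no proteasome site was called above 0 and 3 were called below 0, against 0.139% and 7.36% of all sites. The count of 18 was 0 without KO acetate 1 and 10 without KO acetate 3. It was 3, 4 and 28 without untreated KO 1, 2 and 3, 10 and 1 without WT acetate 1 and 2, and 5, 47 and 22 without untreated WT 1, 2 and 4. The 3 largest each lost their call in at least 1 of these fits.

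Genes that work with the proteasome were listed by function as regulators, ubiquitin receptors and shuttles, and peptide-loading genes. The list had 26 symbols, synonyms among them, which gave 23 genes in the gene table, with 50 sites at 19 of these genes. In untreated KO 47 of the 50 were called lower and 3 higher, with a median of -0.85, against 89.6% and 9.07% of all sites and a median of -0.84. The rising ones were 2 sites inside Ngly1, the deglycosylase that processes NRF1 (0.97 and 1.74), and 1 inside Ube3c, a proteasome-bound ubiquitin ligase (0.96), and they were the only ones of the 50 called with cyclic loess. Of all sites 9.35% were called higher and 2.41% lower with that scaling. Nfe2l1 itself had 2 sites, with -0.70 and -0.61, and Tap2, which pairs with Tap1 in peptide transport, had 3, with -0.89, -0.80 and -0.97. Tap1 and Pomp, the maturation chaperone of the core, had no site assigned. Acetate in KO gave 32 higher and 3 lower, against 54.6% and 5.94% of all sites. With cyclic loess it gave 6 and 5, against 11.5% and 16.7% of all sites. Acetate in WT gave none higher and 1 lower, against 2.91% and 3.02% of all sites. With cyclic loess it gave 2 and none, against 4.43% and 4.07%. KO against WT with acetate gave none in either direction, against 0.0227% higher and 0.0% lower of all sites.

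Of the 9 proteasome genes with no site, Psma2 had a site 54 bp away (chr13:14612988-14613188) that overlapped Mrpl32 and was assigned to it, with a log2 difference of -0.70 in untreated KO. At the 50 kb limit, the last site inside was that of Psmg1 (chr16:95929902-95930102), 49831 bp from the gene, with 41.7, 47.6 and 59.1 in untreated KO libraries, against 99.9, 82.4 and 69.7 in untreated WT libraries and a log2 difference of -0.75. The first site beyond it (chr16:95921240-95921440), 58493 bp from Psmg1, had a difference of -1.37.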

How the data were processed

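The authors made 10 ATAC-seq libraries of mouse Th17 cells. Per the submitters' processing notes, the build was GRCm38 and the tools included BWA 0.7.16a, Genrich and DiffBind 3.6.1, with no role given for any of them. The deposited table holds signal: the reads of a site after division by a factor of its library. How the authors set that factor is not stated in the labels. All values of a library (100%) were multiples of a common step to within 0.001, and that step was taken as 1 read to describe depth only. In 4 of the 10 libraries it lay below the smallest value, and with the smallest value in place of the step 13.8 to 20.7% of their low values were whole multiples. For 2 columns the number in the name matches no sample title, and these were placed by group. Protein-coding genes were taken from a RefSeq gene table of GRCm38.p6. Each site was given the nearest gene body within 50 kb; a gene end is either end within 1 kb.

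In R 4.3.3, limma 3.58.1 with its trend and robust options was run on log2(signal + 1) for all 10 libraries together, as 4 group means, so fold changes of weak sites are understated. In each of 5 contrasts the Benjamini-Hochberg adjustment covered the p-values of the whole table, 39657 sites. The fit was tried on simulated data in which a small set of sites changed. No shift across the table was simulated, so that trial cannot decide between scalings. Alternatives were median-of-ratios, total-signal and cyclic loess scaling, a pseudocount of 10, a minimum mean signal of 20, a replicate block, only the 2 groups compared, only 1 column prefix, each library left out, and gene-end sites only. Prefix as a covariate, ATAC2 libraries only in WT, and leaving out Psmc3ip and Psme3ip1 were added after seeing the data. Python 3.11.15, numpy 2.4.6, pandas 2.3.3 and matplotlib 3.10.9 served for tables and figures.

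The members, lists and tests were chosen with earlier results of these data known. Sites named with library values were the strongest site of each catalytic subunit gene, the strongest gene-end site of each role group, sites called higher in untreated KO, the 5 largest falls and the 5 smallest changes or rises there, up to 4 of smallest p in the acetate contrasts and the interaction, and the sites nearest to the 50 kb limit. Other sites were named as neighbours of these after their values were seen. A marker gene of the lists is not reported here. Values with ± are SE for log2 differences and SD for signal.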

Additional observations from a re-analysis of the deposited data

Results flagged for a closer look

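The acetate difference was tested between KO and WT cells as an interaction (limma, adjusted p under 0.05 over all sites), and the calls at proteasome sites were about as frequent as in the whole table. The interaction was called above 0 at 18 sites and below 0 at 1, against 19.5% and 3.61% of all sites, with a median of 0.67 in both. With cyclic loess the counts were 0 and 3, against 0.139% and 7.36% of all sites. With prefix as a covariate, which rests on the single ATAC2 untreated WT library, the counts were 22 and 1, with no share of all sites given beside them. The count of 18 ran from 0 to 47 when 1 library was left out. At sites named above the interaction was 1.13 at Psma1 (chr7:114292683), 1.20 at Psmb10, 1.21 at Psmb2 (chr4:126678090), 0.95 upstream of Psmb8, 1.63 inside Psmb8, 1.24 upstream of Psmc1 (chr12:100106369), 1.16 beyond Psmd1, 1.47 inside Psmd9, 1.23 and 1.61 upstream of Psmg3 (chr5:139832450 and chr5:139833956) and 1.29 upstream of Psmg4, all on the log2 scale. At the far end of Psmg4 it was -1.86. The Psmb2 site had mean signals of 81.0 in untreated WT and 40.5 in WT acetate, against 36.5 in untreated KO and 41.5 in KO acetate.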

How the results depend on the processing

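Scaling moved most counts of calls. For KO against WT with acetate they were 0 under each of the 4 scalings. Where no share of all sites stands beside a count below, the count is not compared with the whole table. In untreated KO against untreated WT, the count of lower sites was 6 with median-of-ratios factors, 7 with total signal and 1 with cyclic loess, and 44 at gene-end sites only. The sign of the difference turned at 7 named sites. With median-of-ratios, total-signal and cyclic loess scaling it was 0.38, 0.29 and 0.25 at Psma1 (chr7:114316480), 0.30, 0.21 and 0.15 at Psma5, 0.14, 0.055 and 0.051 at Psmc6, 0.12, 0.033 and 0.0082 at Psmd11, and 0.16, 0.067 and 0.090 at Psmd5. With median-of-ratios and cyclic loess scaling it was 0.076 and 0.11 at Psmb5 and 0.041 and 0.18 at Psmg1 (chr16:95929902). For acetate in KO those 3 scalings gave 10, 12 and 6 higher and 12, 8 and 10 lower, prefix as a covariate 13 and 1, and gene-end sites only 27 higher. For acetate in WT there were 0 higher and 0 lower with only the 2 groups compared, 2 and 0 with prefix as a covariate, and 0 and 1 at gene-end sites only. For the interaction those scalings gave 0 above and 3, 2 and 3 below, and gene-end sites only 6 above. The median of proteasome sites minus that of all sites moved to 0.13 for untreated cells in ATAC1 only or with prefix as a covariate, to -0.30 for acetate in KO with that covariate, and to -0.20 for acetate in WT within ATAC2 or with it. Leaving out each library in turn gave 74 to 80 lower sites and 3 higher each time in untreated cells, with that median difference at -0.044 to 0.13; 16 to 54 higher and 3 lower each time for acetate in KO (-0.066 to -0.0074); 0 to 2 higher and 0 to 4 lower for acetate in WT (-0.14 to -0.028); 0 to 47 above and 1 below each time for the interaction (-0.069 to 0.089); and 0 in both directions each time for KO against WT with acetate (-0.061 to 0.090). The cause was not tested. Deviations from the group mean correlated at -0.12 to 0.33 between same-numbered libraries of different groups. Libraries with different numbers were not compared, so this check cannot decide whether the numbers pair the libraries. A replicate block gave 2 higher and 8 lower for acetate in WT, and 28 above and 0 below for the interaction, whose median difference was then -0.18. It left the other counts within 1.5 times, with 80 lower in untreated cells. A pseudocount of 10 and a minimum mean signal of 20 left every count within 1.5 times. The 2 planned fits with edgeR were not run, because in 4 of the 10 libraries no value shows a single read and the reads behind the signal were not held certain enough for a count model. The weakest proteasome site of a library had 11 to 47 reads, which limits the precision of its value.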
